A study of Homo sapiens with 9 samples.

Results

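The integrated stress response was followed through 10 of its genes, ATF4 with stress transcription factors and targets linked to it, in PANC-1 cells, an established line from a human pancreatic ductal tumour, over 2 weeks of combined nutrient and oxygen shortage. They were taken by name, and all 10 were found among the 27800 gene symbols measured. RNA sequencing gave 1 value per symbol as TPM, transcript abundance corrected for length and scaled to a fixed total per library, so levels can be compared between genes. There were 3 libraries each at day 0, day 2 and day 14, all of the same line and with no further treatment. All 9 were marked WT (wild type) in their column names. The labels gave the same culture medium for all 9, with 2.5 mM glucose, 0.5% serum and amino acids at 20% of the usual level. They did not say how the day 0 cells had been kept, gave no undeprived cells at day 2 or day 14, and did not say whether replicates were separate cultures. Time in culture, deprivation and any batch by day therefore cannot be told apart, and p-values measure only the spread between these libraries.

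The integrated stress response starts when a kinase phosphorylates the translation initiation factor eIF2. GCN2 (gene EIF2AK4) answers amino acid shortage, PERK (EIF2AK3) misfolded protein in the endoplasmic reticulum, PKR (EIF2AK2) double-stranded RNA and HRI (EIF2AK1) haem shortage and mitochondrial stress. Most translation slows, while ATF4 protein is made more efficiently and switches on genes for amino acid supply together with further transcription factors, feedback regulators and death-linked genes. ATF4 is controlled largely at translation, so its messenger RNA is only part of its regulation, and none of the values below measure protein.

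Promoter windows from RefSeq (GRCh38.p14, 250 bases before to 50 after each annotated start) were at hand for 9 of the 10 genes, NUPR1 being the exception, in 17 windows. Both strands were searched for 4 short motifs, because the 10 genes are treated as one regulatory group and these letters are what their regulators are known to bind. The motifs were the C/EBP-ATF response element bound by ATF4 dimers (CARE, TGATGNAA), the cyclic AMP response element (CRE, TGACGTCA), the endoplasmic reticulum stress element (ERSE, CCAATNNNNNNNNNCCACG) and the core of the hypoxia response element (ACGTG). CARE was found for CHAC1 and ATF3 of the 9 genes, and for 2.61% of the 10198 tested genes with a window (3.62% of all 35116 windows). CRE was found for PPP1R15A (3.77% of tested genes, 1.85% of windows), the hypoxia core for ATF4 (32.4% and 21.4%) and ERSE for 0 of the 9 (0.157% and 0.0769%). The stretches with a match are shown in the 5′ to 3′ direction of the gene, with the match in capitals. All 4 are on the plus strand.
CHAC1, chr15:40953232-40953299, CARE on the opposite strand: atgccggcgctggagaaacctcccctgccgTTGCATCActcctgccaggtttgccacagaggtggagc
ATF3, chr1:212565186-212565253, CARE before the more upstream start: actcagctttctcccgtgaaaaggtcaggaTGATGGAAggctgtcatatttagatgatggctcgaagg
PPP1R15A, chr19:48872333-48872400, CRE: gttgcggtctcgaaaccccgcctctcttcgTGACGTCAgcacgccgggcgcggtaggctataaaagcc
ATF4, chr22:39520447-39520512, hypoxia core read on both strands, the 2 matches overlapping: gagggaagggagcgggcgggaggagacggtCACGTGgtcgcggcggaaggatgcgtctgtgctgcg
A match describes letters only, and sites outside these windows or with other letters were not searched. Counted from the start as annotated, the match began at -209 in CHAC1, -191 in ATF3, -58 in PPP1R15A and -82 in ATF4. The motifs were at no other place in the windows of the 9 genes.

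The libraries differed in ways that touch these values. Day 0 replicate 2 stood apart: it correlated with the other day 0 libraries at 0.87 and 0.875 across 14144 genes, against 0.972 between those, and 11363 genes reached 1 TPM in it, where the other 8 libraries had 13016 to 13868. Ribosomal protein genes took 23.8% of its TPM and 10.2% to 14.8% of the others'. A pair of short entries, MIR6723 and MIR4461, together held 22.4% to 40.3% of TPM per library. Of the simple epithelial keratins, KRT8 was at 1563 to 2253 TPM at day 0 and 413 to 557 TPM later. KRT18 was at 948 to 1091 and 334 to 565 TPM, and KRT19 at 571 to 939 and 174 to 398 TPM. KRT7 was at 4.42 to 8.71 TPM. Of other listed markers of the line, EPCAM was at 51.1 to 109 and 25.5 to 32.8 TPM. MUC1 was higher at day 2 (57.9 to 68.1 TPM) than at day 0 (21.4 to 26.7 TPM). SOX9 was higher at day 14 (79.2 to 111 against 21.1 to 58.9 TPM) and VIM lower (881 to 1043 against 1278 to 2526 TPM). CDH1 and ITGA6 overlapped with day 0 at both later days. Summed acinar, islet and hepatocyte markers reached at most 1.57 TPM per library, and fibroblast and blood cell markers 75.7 and 70.6 TPM, mostly COL1A1, which was lower at day 14 (8.29 to 12.4 TPM) than at day 2 (55.6 to 72.6 TPM), and CD68, and the part of either in the results was not tested. TPM keeps no read depth, so no counting interval was possible.

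Apart from ATF5, all of the 10 genes were more abundant at day 2 and at day 14 than at day 0 in every library. The summed abundance of the 10 was 932, 780 and 883 TPM in the day 0 libraries, 4053, 4430 and 3908 TPM at day 2, and 3785, 3459 and 3724 TPM at day 14. The groups did not overlap between day 0 and either later day. In bulk RNA, more cells that express a gene and more RNA per cell cannot be told apart. Differences were tested on log2(TPM + 1) with limma (two-sided, Benjamini-Hochberg adjustment over the 14144 genes that reached 1 TPM in 3 or more libraries), and a gene is said to have risen or fallen when its adjusted p was under 0.05. All 10 genes were tested. Only ATF3 went below 1 TPM, in 1 day 0 library. At day 2, 9 of 10 rose and 0 fell, where 19.2% of all tested genes rose and 11.5% fell. At day 14 it was again 9 and 0, against 27.5% and 6.72% of all tested genes. Their median log2 change was 2.42 at day 2 and 2.66 at day 14, beside 0.23 and 0.44 over all tested genes. The libraries of 9 genes did not overlap with day 0, all higher, at either day. Over all tested genes, 33.4% and 42.5% were higher without overlap, and 17.4% and 9.95% lower. All 9 rises kept their direction and call in each of 21 alternative analyses. Leaving out day 0 replicate 2 gave 9 higher and 1 lower (ATF5) at both days, where 24.5% of all tested genes rose and 23.7% fell at day 2, and 34.5% and 14.6% at day 14. The split over all genes depended on scaling: with median-ratio scaling 19.4% rose and 18.4% fell at day 2, and 16.8% each way at day 14, and the median of all genes was at 0.0122 and 0.0037 in place of 0.23 and 0.44.

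**Figure D1:**
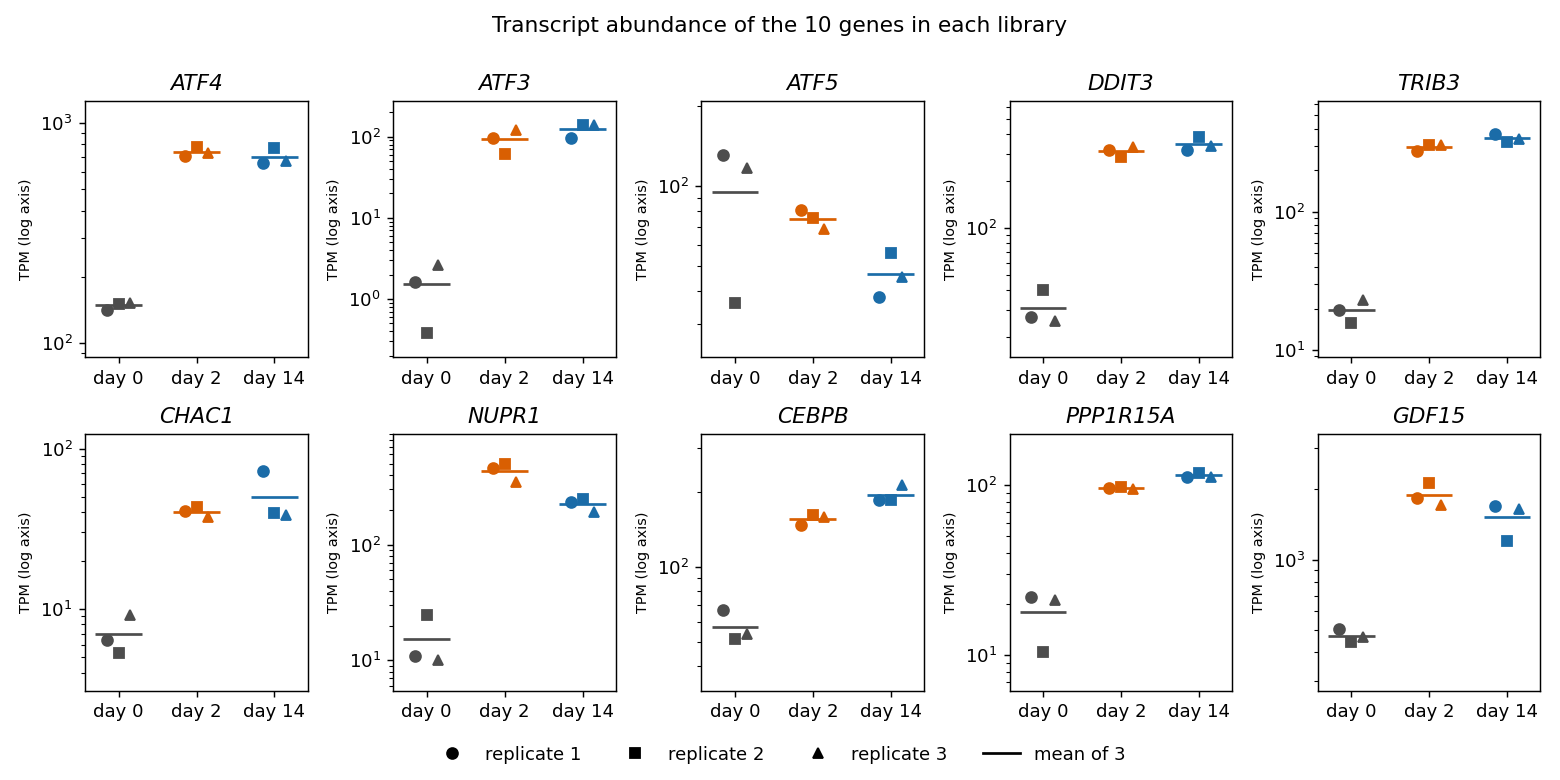
Abundance in TPM (log axis) of each of the 10 genes in the 9 libraries, with a symbol per replicate and a line at the mean of 3. All day 2 and day 14 points lie above all day 0 points except for ATF5, whose day 0 replicate 2 is at 36.1 TPM beside 131 and 117 TPM.

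ATF4, the transcription factor at the centre of the response, was already abundant at day 0, at 141, 151 and 153 TPM. It was at 705, 775 and 734 TPM at day 2 and at 658, 769 and 671 TPM at day 14. The day 0 libraries lay close together and far below the rest, whereas the later days overlapped. Its log2 change was 2.31 ± 0.15 (SE) at day 2 (adjusted p = 6.74e-05, limma) and 2.23 ± 0.15 at day 14 (adjusted p = 0.000107). The ratio of mean TPM was 4.98 and 4.72.

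Among the other factors of the basic leucine zipper (bZIP) class, to which ATF4 belongs and whose members bind DNA as pairs, ATF3 moved from near absence to moderate abundance. ATF3, an early stress-induced factor, was at 1.62, 0.386 and 2.64 TPM at day 0, at 97.6, 62.1 and 120 TPM at day 2 and at 97.7, 138 and 139 TPM at day 14. No day 0 library came near the later ones. Mean TPM was 60.1 times the day 0 level at day 2 and 80.6 times at day 14, ratios that rest on day 0 values near 1 TPM. On the log2(TPM + 1) scale the change was 5.26 ± 0.38 at day 2 (adjusted p = 0.000105, limma) and 5.72 ± 0.38 at day 14 (adjusted p = 0.000107). That of day 14 was the highest of all 14144 tested genes, and that of day 2 ranked 8.

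DDIT3 encodes CHOP, a C/EBP-related partner of ATF4 known for promoting cell death under prolonged stress. Its message was at 27.1, 40.4 and 25.6 TPM at day 0, at 318, 284 and 333 TPM at day 2 and at 318, 383 and 336 TPM at day 14. The later days overlapped and were both about 10 times above day 0, with ratios of mean TPM of 10 and 11.1. The log2 change was 3.31 ± 0.20 at day 2 (adjusted p = 6.74e-05, limma) and 3.46 ± 0.20 at day 14 (adjusted p = 7.09e-05). In GENCODE 29 the exons of DDIT3 overlap those of MARS and MBD6 on the opposite strand. The strand setting of the quantification is not given in the sources used here. The part of reads from these 2 genes in the DDIT3 value was not tested. MARS was at 95.9, 31.2 and 107 TPM at day 0 and 151 to 183 TPM later, and MBD6 at 3.26 to 20.8 TPM and 46.7 to 94.1 TPM. MIR616, a microRNA entry inside an intron of DDIT3, was listed at 0, 0 and 9.67 TPM at day 0, at 70.9, 15.6 and 85.1 TPM at day 2 and at 127, 95.8 and 124 TPM at day 14. It was thus higher in all 6 later libraries, as its host gene was.

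CEBPB, a bZIP factor of liver, fat and inflammatory gene programmes that pairs with ATF4, had a smaller rise. It was at 67.1, 51.1 and 53.4 TPM at day 0, at 147, 162 and 158 TPM at day 2 and at 186, 186 and 212 TPM at day 14. Here all day 14 libraries were above all day 2 libraries. On the log2 scale it rose by 1.44 ± 0.16 at day 2 (adjusted p = 0.000609, limma) and 1.76 ± 0.16 at day 14 (adjusted p = 0.000353). An antisense gene, CEBPB-AS1, overlaps CEBPB but was listed at no more than 2.93 TPM in any library.

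ATF5 is the closest relative of ATF4, is also translated preferentially when eIF2 is phosphorylated, and takes part in the mitochondrial stress response. Its message did not rise. It was at 131, 36.1 and 117 TPM at day 0, at 81.0, 75.4 and 68.5 TPM at day 2 and at 37.9, 55.9 and 45.3 TPM at day 14. Day 0 replicate 2 lay below every day 14 library while the other day 0 libraries lay above every later one, and day 2 lay above day 14 without overlap. The log2 change was -0.14 ± 0.44 at day 2 (adjusted p = 0.83, limma) and -0.83 ± 0.44 at day 14 (adjusted p = 0.165). Without day 0 replicate 2 it fell at both days, by 0.72 (adjusted p = 0.00957) and 1.42 (adjusted p = 0.000571) on the log2 scale. Without day 0 replicate 1 or 3 the day 2 value turned to 0.19 and 0.11, neither passing. Array weights, which count less consistent libraries less, gave a fall at both days (log2 change -0.69 and -1.32, adjusted p = 0.00161 and 1e-04), and median-ratio scaling at day 14 (-1.37, adjusted p = 0.0102). Of all tested genes, 33% and 19.7% fell at these days with array weights, and 16.8% at day 14 with median-ratio scaling. The exons of ATF5 overlap those of NUP62 and IL4I1 on the opposite strand. NUP62 was at 44.4, 17.2 and 43.3 TPM at day 0 and IL4I1 at 0.75 TPM or less everywhere, and the part of these reads in the ATF5 value was not tested.

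The regulators that feed back on the response rose. TRIB3, a pseudokinase that binds ATF4 and CHOP and inhibits AKT, was at 19.5, 15.6 and 23.0 TPM at day 0, at 277, 303 and 305 TPM at day 2 and at 364, 319 and 336 TPM at day 14. All 3 days were separate from each other. Its log2 change, 3.88 ± 0.18 at day 2 (adjusted p = 3.27e-05, limma) and 4.08 ± 0.18 at day 14 (adjusted p = 3.18e-05), had the lowest adjusted p of the 10 genes at both days. PPP1R15A encodes GADD34, which brings protein phosphatase 1 to eIF2 and so ends the block of translation. It was at 21.9, 10.5 and 21.2 TPM at day 0, at 96.0, 97.5 and 95.1 TPM at day 2 and at 112, 118 and 112 TPM at day 14. The day 2 libraries differed by under 3 TPM, and day 14 was above them without overlap. Its rise was 2.43 ± 0.26 on the log2 scale at day 2 (adjusted p = 0.000465) and 2.67 ± 0.26 at day 14 (adjusted p = 0.000388).

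The effectors are CHAC1, which breaks down glutathione, NUPR1, a small chromatin-associated stress protein first described in inflamed pancreas, and the secreted factor GDF15. CHAC1 was at 6.41, 5.29 and 9.16 TPM at day 0, at 40.9, 42.9 and 37.4 TPM at day 2 and at 72.1, 39.5 and 38.5 TPM at day 14. Replicate 1 of day 14 stood above the other 8 libraries. CHAC1 had a log2 change of 2.41 ± 0.28 at day 2 (adjusted p = 0.000676, limma) and 2.65 ± 0.28 at day 14 (adjusted p = 0.000525). NUPR1 was at 10.9, 24.8 and 10 TPM at day 0, at 455, 494 and 345 TPM at day 2 and at 235, 249 and 190 TPM at day 14. It was highest at day 2, with the 3 days separate from each other. Its log2 change was 4.83 ± 0.33 at day 2 (adjusted p = 7.51e-05) and 3.90 ± 0.33 at day 14 (adjusted p = 0.000227), and mean TPM was 28.3 and 14.7 times that of day 0.

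GDF15, a hormone of the transforming growth factor beta family that reduces appetite through a hindbrain receptor, was the most abundant of the 10 genes at each day. It was at 505, 444 and 467 TPM at day 0, at 1835, 2134 and 1713 TPM at day 2 and at 1704, 1201 and 1644 TPM at day 14. Day 14 lay below day 2 in all libraries and both lay well above day 0. The log2 change was 2.00 ± 0.19 at day 2 (adjusted p = 0.000325, limma) and 1.67 ± 0.19 at day 14 (adjusted p = 0.000762). GDF15 made up 52.9% to 57.0% of the summed TPM of the 10 genes at day 0 and 34.7% to 48.2% later. MIR3189, an entry inside the intron of GDF15, was at 99.2, 30.8 and 108 TPM at day 0, at 726, 694 and 552 TPM at day 2 and at 478, 472 and 361 TPM at day 14. It followed the same order of days as GDF15, and whether its reads are unspliced GDF15 was not tested. The receptor gene GFRAL was listed at 0.29 TPM or less in every library.

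**Figure D2:**
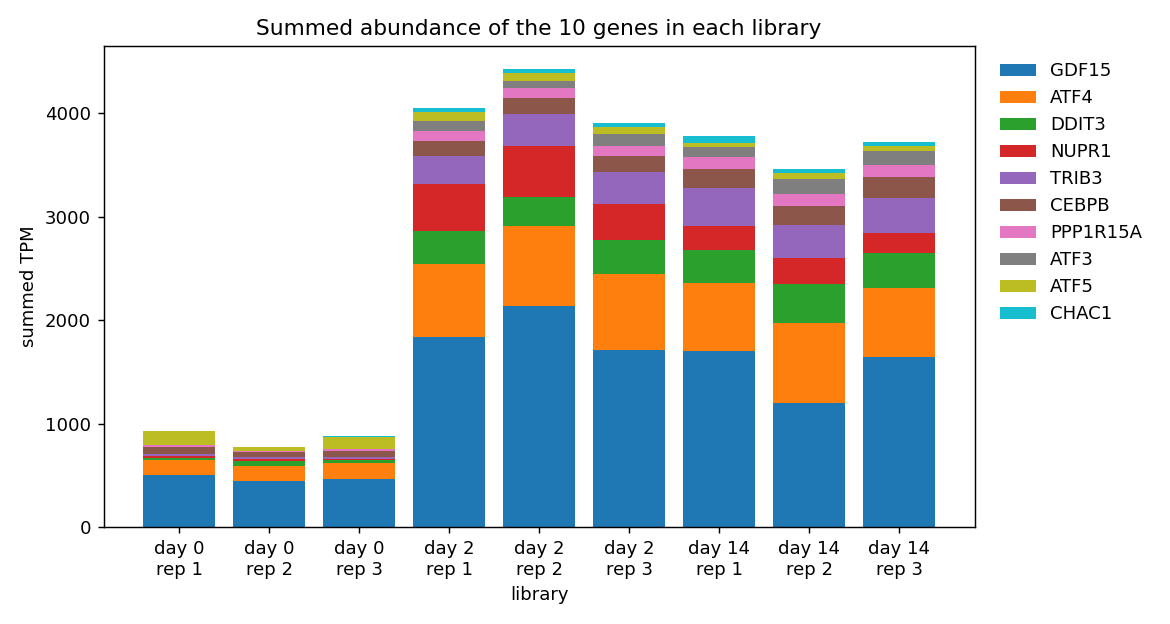
Summed TPM of the 10 genes in each of the 9 libraries, with a colour per gene. The bars reach 780 to 932 TPM at day 0, 3908 to 4430 TPM at day 2 and 3459 to 3785 TPM at day 14, and GDF15 is the largest part of each.

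The order of the levels changed with time. At day 0 it was GDF15, ATF4, ATF5, CEBPB, DDIT3, TRIB3, PPP1R15A, NUPR1, CHAC1 and ATF3 from the highest to the lowest mean. Libraries overlapped between ATF5 and CEBPB, between TRIB3 and PPP1R15A and between PPP1R15A and NUPR1, so these neighbours were not separated beyond their spread. At day 2 NUPR1 came after GDF15 and ATF4, at 432 ± 77.1 TPM (SD, n = 3), ahead of DDIT3 and TRIB3, which overlapped. CEBPB came next, followed by PPP1R15A, ATF3 and ATF5, each overlapping its neighbour, and CHAC1 was last. At day 14 DDIT3 (346 ± 33.2 TPM) and TRIB3 (340 ± 23 TPM) were next after GDF15 and ATF4 and overlapped. NUPR1 and CEBPB overlapped below them, as did ATF3 and PPP1R15A, and CHAC1 and ATF5 at the end. Among all 14144 tested genes, ATF4 went from rank 709 at day 0 to 124 at day 2 and 139 at day 14. DDIT3 went from rank 3326 to 261 and 274, and ATF3 from 11952 to 1028 and 857. ATF5 went from rank 1146 to 1313 and 2691.

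Between day 2 and day 14 none of the 10 genes passed the test (0 rose, 0 fell, limma with all 9 libraries), where 0.212% of all tested genes rose and 0.205% fell. At an unadjusted p under 0.05 there was 1, NUPR1, with a log2 change of -0.93 (95% interval -1.68 to -0.19, unadjusted p = 0.0195, adjusted p = 0.186, limma). The interval for ATF4 was -0.42 to 0.26 around -0.08, for DDIT3 -0.31 to 0.61 around 0.15 and for TRIB3 -0.20 to 0.60 around 0.20. GDF15 had -0.33 (-0.77 to 0.11) and ATF5 -0.70 (-1.69 to 0.30). The values of ATF3 (0.45), CEBPB (0.32), CHAC1 (0.24) and PPP1R15A (0.24) were positive, that of CHAC1 -0.046 without day 14 replicate 1, which held its highest value. Those of DDIT3, TRIB3, CHAC1 and PPP1R15A turned negative under median-ratio scaling (-0.12, -0.064, -0.018 and -0.026), and those of DDIT3, TRIB3 and CHAC1 also under quantile normalization (-0.072, -0.023 and -0.0081). All genes had a median log2 change of 0.24 in this comparison. Libraries did not overlap for 6 of the 10 genes, 3 higher (TRIB3, CEBPB, PPP1R15A) and 3 lower (NUPR1, GDF15, ATF5), where over all tested genes 36.8% were higher and 7% lower without overlap.

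This comparison used a spread estimated from all 9 libraries, including day 0 replicate 2. In a fit of only day 2 and day 14, 2 of the 10 genes fell and 0 rose, where 2.69% of all tested genes fell and 15.1% rose. They were NUPR1 (adjusted p = 0.0265, limma) and ATF5 (adjusted p = 0.0363). Without day 0 replicate 2 the same 2 fell, with adjusted p = 0.0111 and 0.0182, where 3.82% of all tested genes fell and 23.4% rose. Array weights gave 2 rises besides these falls, of CEBPB (0.37, adjusted p = 0.0376) and PPP1R15A (0.25, adjusted p = 0.0451), where 31.2% of all tested genes rose and 4.56% fell. NUPR1 was at 0.52 and ATF5 at 0.618 of its mean day 2 TPM at day 14.

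**Figure D3:**
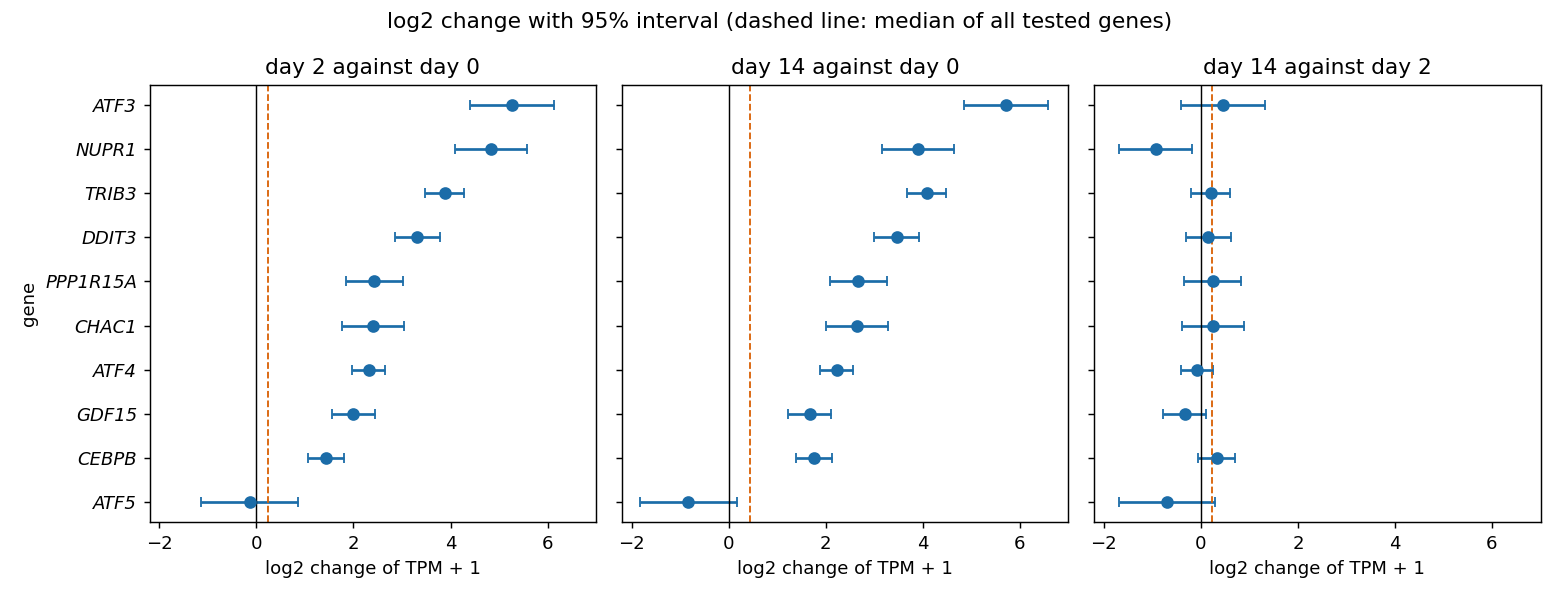
log2 change of TPM + 1 with its 95% interval from limma for the 10 genes in the 3 comparisons of days, with a dashed line at the median of all tested genes. Intervals of 9 genes lie above 0 in both comparisons with day 0, and in day 14 against day 2 only that of NUPR1 excludes 0.

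Over the 9 libraries the log2 values of the 9 genes other than ATF5 correlated with each other at 0.90 to 0.99 (Pearson), and with ATF5 at -0.46 to -0.23. These coefficients only describe the pattern, because day 0 is far from both later days and sets most of each value. Among 10057 other genes with a mean of at least 5 TPM, the ones most like ATF4 by this measure were ADM (0.997), the amino acid transporter subunit SLC3A2 (0.997), MXI1 (0.996), DNTTIP1 (0.995) and the pseudogene RPS10P7 (0.994). ADM, the vasodilator adrenomedullin, and MXI1, an antagonist of MYC, are known hypoxia-induced genes. ADM was at 134 ± 9.31, 1184 ± 156 and 1200 ± 42.9 TPM (SD, n = 3) at days 0, 2 and 14, and SLC3A2 at 148 ± 18.1, 509 ± 15.2 and 481 ± 22.4 TPM. Of the 10 genes themselves, TRIB3 (0.992) and DDIT3 (0.991) were the nearest to ATF4 by Pearson correlation and CHAC1 (0.959) the farthest after ATF5. The order depended on the measure. By rank correlation (Spearman) NUPR1 (0.867) was the nearest and TRIB3 (0.517) the farthest after ATF5, with DDIT3 at 0.617 and CHAC1 at 0.65.

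In a list of 9 genes, for the kinases that start the response and for factors that regulate them, 0 rose and 0 fell at day 2 (limma). At day 14, 2 rose (OMA1 and IMPACT) and 0 fell. Of all tested genes, 19.2% rose and 11.5% fell at day 2, and 27.5% and 6.72% at day 14. The counts of this list depended on the setting: array weights gave 3 higher and 3 lower at day 2 and 5 and 1 at day 14, and median-ratio scaling 2 higher at day 2 and 0 at day 14. Of all tested genes, array weights gave 30.5% higher and 33% lower at day 2, and 40.1% and 19.7% at day 14. Median-ratio scaling gave 19.4% of them higher at day 2 and 16.8% at day 14. Mean TPM at days 0, 2 and 14 was 53.5, 75.9 and 89.2 for EIF2AK1, 9.49, 14.7 and 17.8 for EIF2AK2, 3.97, 7.84 and 7.37 for EIF2AK3 and 9.92, 7.41 and 14.7 for EIF2AK4. None of the 4 passed at day 2 (adjusted p = 0.0549 to 0.753, limma) or day 14 (0.0608 to 0.231). Day 0 replicate 2 had the lowest value of each among the day 0 libraries. Without it EIF2AK3 rose (adjusted p = 0.0298) and EIF2AK4 fell (log2 change -0.76, adjusted p = 0.00979) at day 2. At day 14 EIF2AK1, EIF2AK2 and EIF2AK3 then rose (adjusted p = 0.0187, 0.0075 and 0.0488). The other day 0 libraries moved these calls too: leaving out replicate 1 or 3, EIF2AK3 passed at day 2 (adjusted p = 0.0459 and 0.0476) and EIF2AK2 at day 14 (0.0386 and 0.0435), and EIF2AK3 passed at day 14 with replicate 1 left out (0.0499). EIF2AK3 passed at day 2 under median-ratio scaling as well (0.0367), EIF2AK2 at day 14 under quantile normalization (0.0474), and both with pseudocount 5 (0.0426 and 0.0454), with ribosomal protein genes removed (0.0401 each) and with array weights (0.00267 and 0.00223). Array weights also gave calls for EIF2AK4 at day 2 (lower, 0.000548) and for EIF2AK1 (0.0339) and EIF2AK3 (0.0149) at day 14, the last also with ribosomal protein genes removed (0.043). EIF2AK4 at day 2 went from -0.20 to 0.071 and 0.10 when replicate 1 or 3 was left out. For the whole list, leaving out day 0 replicate 2 gave 3 higher and 2 lower at day 2 and 5 and 1 at day 14. Of all tested genes, 24.5% then rose and 23.7% fell at day 2, and 34.5% and 14.6% at day 14. In the list, leaving out either other day 0 library gave 1 higher at day 2. At day 14, 4 were higher with day 0 replicate 1 left out, 1 with any day 2 library left out and 0 with any day 14 library left out.

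Of 12 genes for eIF2, its exchange factor eIF2B and the phosphatase, 3 rose and 5 fell at day 2, and 4 rose and 2 fell at day 14. Of all tested genes, 19.2% rose and 11.5% fell at day 2, and 27.5% rose and 6.72% fell at day 14. EIF2S1, the subunit that is phosphorylated, was at 35.0, 39.0 and 33.4 TPM at day 0 and 17.6, 16.9 and 20.5 TPM at day 2, a log2 change of -0.93 ± 0.18 (adjusted p = 0.00555, limma). At day 14 it was at 34.5, 26.1 and 26.5 TPM and did not pass (adjusted p = 0.21), but fell under median-ratio scaling (adjusted p = 0.0458) and with array weights (0.0347). EIF2B3 fell by 1.45 on the log2 scale at day 2 (adjusted p = 0.00305). PPP1R15B, the constitutive counterpart of PPP1R15A, was at 19.1 ± 9.75, 46.2 ± 2.68 and 50.1 ± 3.88 TPM (SD, n = 3) at the 3 days. Its log2 change was 1.39 ± 0.38 at day 2 (adjusted p = 0.0243) and 1.5 ± 0.38 at day 14 (0.0166). The call, not the size, changed with the libraries used: it was lost at day 2 without any single day 2 library (log2 change 1.43, 1.34 and 1.39, adjusted p = 0.0641, 0.0747 and 0.0697) and at day 14 without day 14 replicate 2 (log2 change 1.44, adjusted p = 0.056), and at both days in fits of only the 2 days compared (0.0679 and 0.0548). In the list as a whole, 1 gene rose at day 2 when any day 2 library was left out, and 1 at day 14 when day 14 replicate 2 was. At day 2, 1 rose with median-ratio scaling and in the fit of only the 2 days compared, and 8 fell with array weights. Of all tested genes, 19.4% and 13.6% rose and 33% fell in these fits. The falls in the list at day 14 were 1 when replicate 1 or 3 of day 0 or day 2 was left out and 0 when replicate 2 or 3 of day 14 was.

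Of 4 tested paralogs of the 10 genes, 1 rose and 1 fell at both days, PPP1R15B and CHAC2. Of all tested genes, 19.2% and 27.5% rose and 11.5% and 6.72% fell at the 2 days. CHAC2, a constitutive relative of CHAC1, was at 9.20, 13.2 and 10.7 TPM at day 0 and fell to 3.27, 3.60 and 3.90 TPM at day 2 (log2 change -1.38 ± 0.19, adjusted p = 0.00147, limma). It was at 7 ± 1.02 TPM (SD, n = 3) at day 14. TRIB1 was at 11.3 ± 1.51, 17.0 ± 0.775 and 16.3 ± 4.97 TPM at days 0, 2 and 14, and TRIB2 at 7.15 ± 1.55, 5.23 ± 0.80 and 6.17 ± 0.701 TPM. Neither passed at day 2 (adjusted p = 0.0975 and 0.191) or day 14 (0.148 and 0.538). Without day 0 replicate 2, TRIB1 rose by 0.64 (adjusted p = 0.0428) and TRIB2 fell by 0.53 (adjusted p = 0.0239) at day 2, and TRIB2 fell at both days under median-ratio scaling (adjusted p = 0.0201 and 0.0199) and quantile normalization (0.0123 and 0.0134). With array weights TRIB1 rose at both days (adjusted p = 0.00178 and 0.00504) and TRIB2 fell at day 2 (0.00272). The day 14 value of TRIB1 was 0.46 and turned to -0.057 under median-ratio scaling. NUPR2 was listed at 0.345 TPM or less in every library. In this small list the rise at day 2 was lost (0) when any day 2 library was left out and 2 rose and 2 fell when day 0 replicate 2 was. At day 14 the rise was lost (0) with day 14 replicate 2 left out. The fall at day 14 was lost (0) with day 0 replicate 3 or any day 2 or day 14 library left out.

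Other factors of the bZIP class at large rose in 19 of 35 tested cases (of 42 listed) at day 2 and fell in 3. At day 14 the counts were 26 and 1, and the median log2 change was 1.11 and 1.28. All tested genes had medians of 0.23 and 0.44, with 19.2% and 27.5% higher and 11.5% and 6.72% lower. CEBPG, a common ATF4 partner, was at 23.8, 19.3 and 23.8 TPM at day 0, 69.1, 67.7 and 75.1 TPM at day 2 and 95.1, 81.2 and 80.7 TPM at day 14. All 6 later libraries were above day 0 (log2 change 1.62 ± 0.16 and 1.90 ± 0.16, adjusted p = 0.000361 and 0.000236, limma). MAFF, a small MAF protein, had the largest rise of the named ones, 3.61 ± 0.33 at day 2 and 3.69 ± 0.33 at day 14 (adjusted p = 0.000264 and 0.000282). BATF3 fell by 2.00 at day 2 (adjusted p = 0.00109). The falls at day 2 were 1 when replicate 1 or 3 of day 0 or any day 2 library was left out, and at day 14 0 when replicate 2 or 3 of day 14 was.

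Most of the listed ATF4 targets rose, in lists chosen with earlier results of these data known. Of 32 tested genes of amino acid supply, 28 rose and 1 fell at day 2, and 27 and 1 at day 14, with a median of 1.51 and 1.67. Beside both lists of targets, 19.2% of all tested genes rose and 11.5% fell at day 2 (median 0.23). At day 14, 27.5% rose and 6.72% fell (median 0.44). ASNS, asparagine synthetase, was at 24.7, 40.1 and 37.7 TPM at day 0, 175, 130 and 194 TPM at day 2 and 160, 243 and 185 TPM at day 14. Its later libraries were all above day 0 (log2 change 2.26 and 2.49, adjusted p = 0.000629 and 0.00049, limma). SLC7A11, the cystine carrier, rose by 3.86 and 2.78, and CTH, which makes cysteine from cystathionine, by 2.91 and 2.50 (adjusted p = 0.000172 to 0.000655). The gene that fell was SHMT2 (-1.20 and -1.05, adjusted p = 0.00149 and 0.00285), and 2 fell at each day when day 0 replicate 2 was left out. Of 22 other tested targets, 19 rose and 1 fell at day 2, and 20 rose and 0 fell at day 14, with medians of 2.08 and 1.96. SESN2, an mTORC1 inhibitor that senses leucine, was at 6.12, 1.93 and 6.81 TPM at day 0, 82.0, 68.7 and 75.4 TPM at day 2 and 80.4, 91.3 and 71.6 TPM at day 14. DDIT4, also an mTORC1 inhibitor and a hypoxia target, rose by 5.83 ± 0.30 and 5.14 ± 0.30 (adjusted p = 4.58e-05 and 7.09e-05). The single fall at day 2, ATG3, was lost (0) when day 0 replicate 3 or any day 2 library was left out.

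Among genes linked to death after CHOP, 15 were tested. Of these, 5 rose and 1 fell at day 2 (median log2 change -0.38) and 7 rose and 0 fell at day 14 (median 0.76), where 19.2% and 27.5% of all tested genes rose and 11.5% and 6.72% fell. BBC3, the BCL2 antagonist PUMA, went from 1.72 ± 0.101 to 21.6 ± 4.36 and 18.1 ± 1.73 TPM (SD, n = 3), with log2 changes of 3.03 and 2.81 (adjusted p = 6.74e-05 and 0.00011, limma). TNFRSF10B, the death receptor DR5, rose by 2.21 and 2.35 (adjusted p = 0.00649 and 0.00498), and the endoplasmic reticulum oxidase ERO1A by 2.78 and 1.91 (adjusted p = 0.00119 and 0.00581). The 1 fall at day 2 was BCL2L1, the survival factor BCL-XL, at 191, 107 and 150 TPM at day 0, 91, 80.3 and 76.9 TPM at day 2 and 306, 212 and 231 TPM at day 14. Day 2 lay below day 0 and day 14 above it without overlap. Its log2 change was -0.81 at day 2 (adjusted p = 0.034), 0.76 at day 14 (0.0404) and 1.57 from day 2 to day 14 (0.0415). Each of these calls was lost when 1 library was left out, with adjusted p up to 0.108, 0.123 and 0.212: at day 2 without replicate 1 or 3 of day 0, any day 2 library or day 14 replicate 3, at day 14 without day 0 replicate 3 or any later library, and between the later days without any library but day 0 replicate 2. Median-ratio scaling gave 0.21 at day 14 (adjusted p = 0.416). The falls in the list at day 2 were 8 with array weights, 6 with quantile normalization and 5 with median-ratio scaling. Of all tested genes, 33%, 19.9% and 18.4% fell in these. The falls in the list were 6 with day 0 replicate 2 left out (23.7% of all tested genes), 2 with day 14 replicate 1 left out, and 0 with either other day 0 library, day 14 replicate 3 or any day 2 library left out. At day 14, 4 rose with day 14 replicate 2 left out, 2 fell with day 0 replicate 2 left out, and array weights gave 3 falls and the fit of only these 2 days 3 rises. Of all tested genes, 18.2% and 16.6% rose in the first and last of these fits, and 14.6% and 19.7% fell in the others.

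In the branches of the unfolded protein response that run through ATF6 and XBP1, 6 of 25 genes rose and 8 fell at day 2, where 19.2% of all tested genes rose and 11.5% fell. At day 14, 9 rose and 5 fell, where 27.5% and 6.72% did. HSPA5, the chaperone BiP and also an ATF4 target, was at 188, 220 and 208 TPM at day 0, 1112, 924 and 989 TPM at day 2 and 1069, 1144 and 850 TPM at day 14. It was higher in all 6 later libraries (log2 change 2.29 and 2.30, adjusted p = 0.00015 and 0.000185, limma). HERPUD1, which is also among the other listed ATF4 targets, rose too (2.15 and 2.60, adjusted p = 7.47e-05 and 6.01e-05). So did the sensor ERN1 (2.75 and 3.09, adjusted p = 0.00119 and 0.00084). The secreted stress factor MANF fell by 2.13 and 1.41 (adjusted p = 0.000903 and 0.0052) and the chaperone cofactor SDF2L1 fell by 2.63 at day 2 (adjusted p = 0.00156). The rises at day 14 were 5 with replicate 1 or 3 of day 14 left out, and the falls 3 with replicate 3 left out.

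Around CHAC1, genes of glutathione synthesis and breakdown gave 5 higher and 3 lower of 11 at day 2, and 2 higher and 4 lower at day 14. The shares over all tested genes were 19.2% higher and 11.5% lower at day 2, and 27.5% and 6.72% at day 14. GCLM, the modifier subunit of the first enzyme of glutathione synthesis, went from 12.4 ± 3.93 to 101 ± 8.79 TPM (SD, n = 3) at day 2 (log2 change 2.98, adjusted p = 0.00135, limma) and was at 31.2 ± 18.2 TPM at day 14. GGCT, which acts on the product of glutathione breakdown, fell by 1.84 at day 2 (adjusted p = 0.00488). The falls at day 14 were 2 with day 0 replicate 3 left out, and 0 and 1 with replicates 2 and 3 of day 14 left out. Partners and turnover factors of ATF4 and TRIB3 gave 4 higher and 1 lower of 12 at day 2 and 5 and 1 at day 14, beside the same shares. EGLN3, an oxygen-dependent prolyl hydroxylase that is itself induced by hypoxia, rose from 0.262 ± 0.00911 to 5.60 ± 0.534 TPM at day 2 (2.38, adjusted p = 0.00231) and was at 5.09 ± 3.07 TPM at day 14 (2.12, adjusted p = 0.00376). In that list, 2 rose at day 2 with any day 2 or day 14 library left out. There were 0 falls at day 2 with replicate 1 or 3 of day 2 left out, and 2 at both days with day 0 replicate 2 left out. Of 5 tested genes that process or receive GDF15, 1 rose and 0 fell at day 2, and 0 rose and 0 fell at day 14, again beside these shares. With day 0 replicate 2 left out, 2 and 3 of these 5 genes fell, where 23.7% and 14.6% of all tested genes did.

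**Figure D4:**
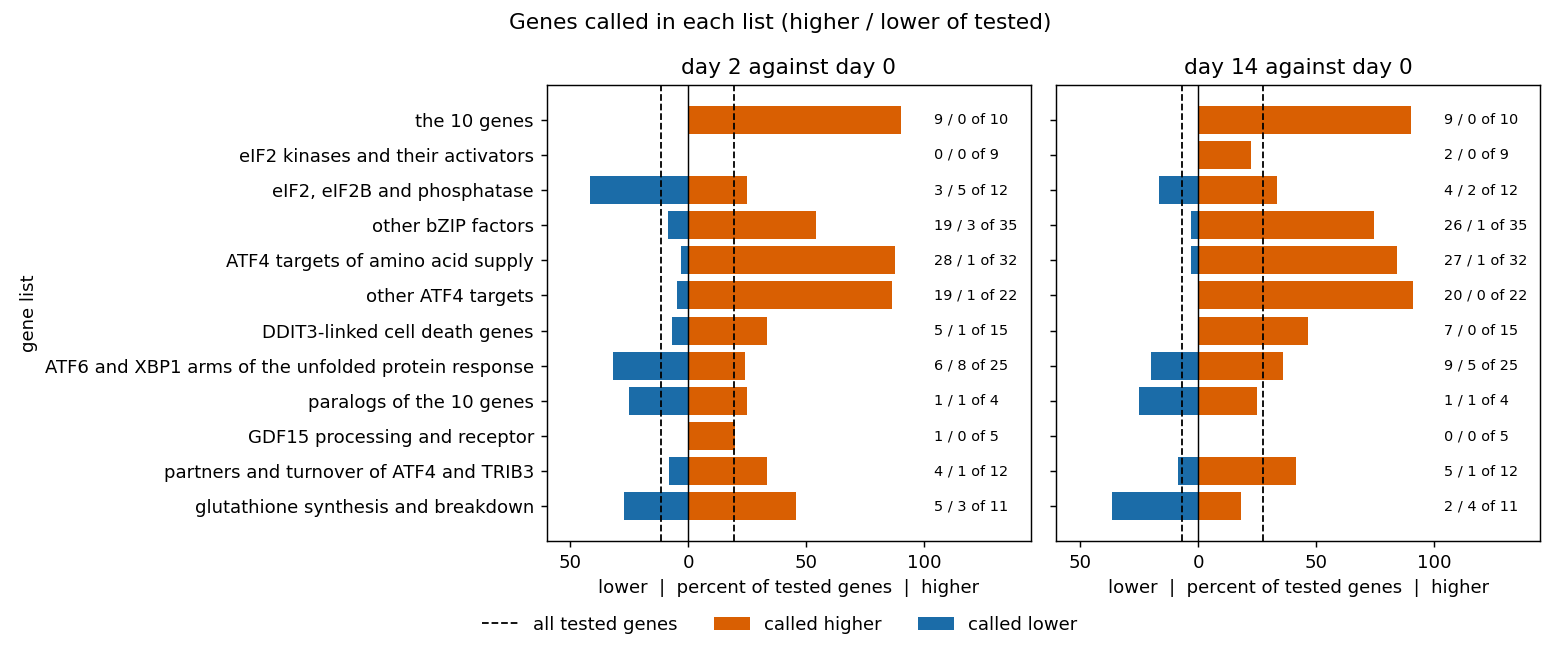
Percent of tested genes called higher (right of 0) or lower (left of 0) in each list at day 2 and at day 14 against day 0, with the counts printed beside the bars and dashed lines at the percent over all tested genes. The 10 genes (9 higher at both days) and both lists of ATF4 targets have the longest bars to the right, while the kinase list has 0 and 2 higher and the ATF6 and XBP1 arms extend to both sides. The kinase list, labelled with activators, holds regulators of the kinases in general.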

How the data were processed

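The authors deposited TPM per gene symbol for 9 libraries, for which the submitters' processing notes name Salmon and hg19. Not given in the sources used here are the version of Salmon, the annotation, the strand setting and read filters. A TPM is relative within its library and keeps no depth, so precision comes from the 3 replicates alone. Columns were mapped by the day and number in their names. No gene had exactly the same nonzero value, at the deposited precision, in any 2 libraries, so none was treated as a duplicate.

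Values were analysed as log2(TPM + 1), which understates changes of low genes, for the 14144 genes that reached 1 TPM in 3 or more libraries. limma 3.58.1 (R 4.3.3) was fitted once across the 3 days with a trended prior. P-values are two-sided and adjusted by Benjamini-Hochberg per comparison, with a threshold of 0.05. The fit was tested on simulated data with the same spread of noise for all genes within a library. Differences in spread between genes were not covered. The members and lists were chosen with earlier results of these data known. Besides the 10 genes, those named were the calls with the largest rise or fall per list (mean of at least 5 TPM in the higher day, no overlap), 19 fixed by name and the 5 most like ATF4. Not all are printed, 1 list and its genes are not reported here, and some are given at a day for which another gene was named. ATG3, OMA1, IMPACT, overlapping entries and neighbours were named after values were seen. Symbols carry no coordinates because no hg19 annotation was used. Promoters (RefSeq, GRCh38.p14) and overlaps (GENCODE 29) serve sequence and gene order only.

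Alternatives were quantile normalization and median-ratio scaling, pseudocounts 0.1 and 5, a filter on a mean of 5 TPM or none, removal of ribosomal protein genes, array weights, limma without trend, a replicate block, 2-day fits and leave-one-out fits. TPM without MIR6723 and MIR4461 was added after the data had been seen.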

Additional observations from a re-analysis of the deposited data

How the results depend on the processing

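The 9 rises at day 2 and at day 14 against day 0 kept their direction and side of the threshold in all 21 alternatives, with adjusted p from 5.65e-08 to 0.0132 (limma). Falls among the 10 genes at day 2 went from 0 to 1 (ATF5) with array weights and without day 0 replicate 2 (range 0 to 1 over the left-out libraries). Of all tested genes, 33% and 23.7% fell in these fits. At day 14 falls among the 10 genes went from 0 to 1 with median-ratio scaling, array weights and without day 0 replicate 2 (0 to 1). Of all tested genes, 16.8%, 19.7% and 14.6% fell in these. Between day 14 and day 2 array weights gave 2 higher and 2 lower, the 2-day fit 2 lower, and left-out libraries 0 to 2 lower. Of all tested genes, array weights gave 31.2% higher and 4.56% lower and the 2-day fit 2.69% lower, and 3.82% were lower without day 0 replicate 2. ATF5 at day 2 reversed without day 0 replicate 1 (0.19) or 3 (0.11), a range of -0.72 to 0.19 over the alternatives, and EIF2AK4 likewise (0.071 and 0.10; -0.76 to 0.10 over left-out libraries). Reversals under median-ratio scaling were TRIB1 at day 14 (-0.057), and for day 14 against day 2 DDIT3 (-0.12), TRIB3 (-0.064), CHAC1 (-0.018) and PPP1R15A (-0.026). Under quantile normalization they were DDIT3 (-0.072), TRIB3 (-0.023) and CHAC1 (-0.0081), and CHAC1 ranged from -0.046 (without day 14 replicate 1) to 0.40 over left-out libraries. The cause was not tested. Of 1530 values for the other named genes, 1456 kept direction and call, 38 lost and 33 gained a call and 3 reversed.

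Over all genes, 4313 rose and 4662 fell at day 2 with array weights (2715 and 1633 as reported), 1697 rose with the filter on a mean of 5 TPM, and 2603 and 2815 fell with median-ratio scaling and quantile normalization. Left-out libraries gave 1671 to 3471 rises and 945 to 3351 falls, the highest of both without day 0 replicate 2. At day 14 (3890 and 951), falls were 2371, 2454 and 2785 with median-ratio scaling, quantile normalization and array weights, 578 in the 2-day fit and 628 to 2063 over left-out libraries. Rises were 2372, 2416, 2349 and 2451 with median-ratio scaling, quantile normalization, the 2-day fit and the filter on the mean, and 2572 (without day 14 replicate 2) to 4873 (without day 0 replicate 2) over left-out libraries. Between day 14 and day 2 (30 and 29), array weights gave 4407 and 645, the 2-day fit 2138 and 381, the fit without day 0 replicate 2 3307 and 541, and the other left-out libraries 0 to 9 and 1 to 9. Pseudocounts 0.1 and 5 gave 3 and 3, and 71 and 56. The filter on the mean gave 11 and 13, quantile normalization 120 and 221, removal of ribosomal protein genes 83 and 45, and of MIR6723 and MIR4461 (added after the data had been seen) 4 and 9. Falls were 84 with median-ratio scaling.

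With the replicate block, 1 gene rose and 1 fell between day 14 and day 2 and the 10 genes gave 9 higher at day 2, 9 at day 14 and 0 between the later days, and it changed no call among them. Deviations from the mean of each day correlated at -0.079 to 0.015 between same-numbered libraries and at -0.032 to 0.059 between differently numbered ones. The medians were -0.026 and 0.019, so same-numbered libraries were no more alike than others by this measure. The labels do not say whether they shared a culture or preparation.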

Other observations

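The protein-coding neighbours of the 10 genes, the next gene on each side in RefSeq order, were listed after values of some had been seen. Of 20 neighbours 13 were tested, 6 rose and 0 fell at day 2, and 5 rose and 0 fell at day 14, where 19.2% and 27.5% of all tested genes rose. PGPEP1, a peptidase gene beside GDF15, went from 4.96 ± 0.192 TPM at day 0 to 62.1 ± 14.8 TPM at day 2 and 54.9 ± 3.87 TPM at day 14 (SD, n = 3). Its log2 changes of 3.38 and 3.23 (adjusted p = 6.74e-05 and 7.23e-05, limma) were larger than those of GDF15. RBCK1, a ubiquitin ligase subunit gene beside TRIB3, went from 43.5 ± 11.7 to 233 ± 44.4 and 202 ± 27.4 TPM, with log2 changes of 2.41 and 2.22 (adjusted p = 0.000411 and 0.000672). TBC1D17 beside ATF5 rose by 1.85 and 1.48 (adjusted p = 0.000594 and 0.00163) although ATF5 itself did not. TMEM189 beside CEBPB rose by 1.54 and 1.09 (adjusted p = 0.000597 and 0.00272). The neighbours of ATF4, MIEF1 and RPS19BP1, were not called at either day (adjusted p = 0.115 to 0.827).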
